A study of Mus musculus with 30 samples.

Results

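The genes described here are 39 genes that act in DNA replication and in mitosis, out of 29861 genes with a deposited value in each of 30 libraries. They were taken by name: 19 replication and S phase genes (Mcm2 to Mcm7, Pcna, Rrm1, Rrm2, Tyms, Cdc45, Cdc6, Cdt1, Gins2, Ccne1, Ccne2, E2f1, Uhrf1 and Tk1), 19 mitosis genes (Ccna2, Ccnb1, Ccnb2, Cdk1, Cdc20, Plk1, Aurka, Aurkb, Bub1, Bub1b, Mki67, Top2a, Ube2c, Birc5, Cenpe, Kif11, Kif20a, Tpx2 and Foxm1) and the G1 cyclin gene Ccnd1. All 39 were found in the table. All RNA was from CCG-HTA-1, a single line of primary tail fibroblasts of the UMHet3 mouse stock, which is genetically heterogeneous, at passage 4. The labels say that the mice were 5 to 8 weeks old when cells were taken, except that Dihydrorotenone replicate 1 carries an age of 8 to 11 weeks. Every culture was kept at ambient oxygen in high-glucose medium without pyruvate, and RNA was taken 48 hours after the compound was added.

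There were 3 libraries for each of 8 compounds and 6 for the solvent DMSO. Antimycin A and Dihydrorotenone inhibit mitochondrial electron transport, at complex III and complex I, and Diphenyleneiodonium Cl inhibits flavin-dependent oxidases. Cardamonin is a plant chalcone, BerberineA is named here as in the labels, Clofilium tosylate blocks potassium channels, AEG 3482 was described as an inhibitor of stress kinase signalling, and Podofilox (podophyllotoxin) binds tubulin and prevents microtubule assembly. The labels used here give no doses, so each comparison is between these cultures at whatever dose was used. Although 5 replicates of DMSO are mentioned in the series description, 6 libraries are labelled as such and all were used. Nothing in the labels says that replicates were separate cultures, so the p-values measure only the spread between these libraries, which may be technical. The numbers in the sample descriptions, whose meaning is not given, run consecutively within a group. Any batch that follows them therefore cannot be told apart from a group.

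A dividing cell licenses its origins in G1, when Cdc6 and Cdt1 load the ring of 6 MCM proteins onto DNA. In S phase Cdc45 and the GINS complex turn that ring into the replicative helicase. Cyclin D and cyclin E kinases release E2F factors from the RB family, and E2F factors switch on most replication genes. Mitosis genes come on later, through MYBL2 and FOXM1 bound with the MuvB complex at promoters that carry a short element called the cell cycle homology region, often beside CCAAT boxes. The CDK inhibitor p21, encoded by Cdkn1a, keeps these genes off in arrested cells by way of RB-family repressor complexes.

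Both kinds of promoter element were looked for, and 5 promoters are shown so that the letters can be seen. Promoter windows from RefSeq on GRCm38.p6, each from 250 bases before to 50 bases after an annotated start, were found for 30 of the 39 genes (32 windows, 300 bases each). The letters were searched on both strands. The E2F core was read as TTCCCGC or with the letters TTCGCGC, and also as TTGCCGC or with the letters TTGGCGC. The cell cycle homology region was read as TTTGAA or with the letters TTCGAA, and the CCAAT box by its own letters. The E2F core was present in 61.1% of the 18 replication windows, 21.4% of the 14 mitosis windows and 9.57% of all 32851 windows in the table. The cell cycle homology region was present in 16.7% of the replication windows, 78.6% of the mitosis windows and 19.2% of all windows. CCAAT was present in 66.7%, 92.9% and 37.4% of them. A match to such short letters is a description of the sequence and not a shown binding site.

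The promoters printed are those of Cdk1, Mcm7, Mcm2, Mcm6 and Ccnb1. They are the ones that hold an E2F core or a homology region in the stretch from 150 bases before the start to the start or the nearest annotated exon, among the 8 genes with a searched motif in their window and the lowest adjusted p with AEG 3482. All 5 genes lie on the minus strand, and each run is written 5′ to 3′ along the gene's own strand. The stretches are chr10:69352939-69353062 for Cdk1, chr5:138171267-138171416 for Mcm7, chr6:88898781-88898930 for Mcm2, chr1:128359706-128359855 for Mcm6 and chr13:100786571-100786636 for Ccnb1, all in GRCm38.p6. Capitals mark the motif letters, and ATTGG is CCAAT read on the other strand.
Cdk1: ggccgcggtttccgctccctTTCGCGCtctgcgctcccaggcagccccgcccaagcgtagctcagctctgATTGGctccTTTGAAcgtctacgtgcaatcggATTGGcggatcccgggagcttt
Mcm7: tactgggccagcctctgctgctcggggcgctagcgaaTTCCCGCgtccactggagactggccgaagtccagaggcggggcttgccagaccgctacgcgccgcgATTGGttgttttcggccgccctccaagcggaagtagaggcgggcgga
Mcm2: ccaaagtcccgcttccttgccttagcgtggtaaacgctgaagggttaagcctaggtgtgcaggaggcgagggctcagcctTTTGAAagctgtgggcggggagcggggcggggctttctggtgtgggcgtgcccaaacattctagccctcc
Mcm6: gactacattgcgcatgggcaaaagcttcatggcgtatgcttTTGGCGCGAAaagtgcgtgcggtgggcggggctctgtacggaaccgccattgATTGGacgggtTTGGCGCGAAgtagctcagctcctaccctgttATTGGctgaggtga
Ccnb1: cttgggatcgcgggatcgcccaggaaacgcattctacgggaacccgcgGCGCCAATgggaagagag
The Cdk1 run holds an E2F core, a homology region 4 bases after a CCAAT box, and a second CCAAT box. In the Mcm6 run each block of capitals that starts with TTGGCGC is an E2F core on 1 strand overlapping another on the opposite strand, and it occurs in 2 places. In the Ccnb1 run an E2F core on the opposite strand overlaps a CCAAT box.

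The levels in solvent-treated cells are given first. Values are TPM, transcripts per 1000000 transcripts, which are comparable between genes because they are divided by transcript length. Of the 39 genes, 31 reached 1 TPM in at least 3 of the 30 libraries and were tested, namely 17 of the 19 replication genes, 13 of the 19 mitosis genes and Ccnd1. The 8 genes below that level were Mcm5, Cdc6, Plk1, Bub1, Bub1b, Mki67, Cenpe and Kif11, and their values are given without a test. In DMSO the median over the replication genes was 6.40 TPM and over the mitosis genes 1.63 TPM, against 16.1 TPM over all 13644 tested genes. Pcna, the sliding clamp of the replication fork, was the highest replication gene at 49.0 ± 2.75 TPM (SD, n = 6). It was followed by Mcm7 at 26.0 ± 2.13 TPM, Rrm1, a subunit of ribonucleotide reductase, at 19.3 ± 1.92 TPM, and E2f1 at 16.9 ± 0.792 TPM.

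Among the mitosis genes Cdk1, the kinase that drives entry into mitosis, stood apart at 31.6 ± 0.798 TPM. The next mitosis gene, Top2a (the DNA topoisomerase that untangles chromosomes), was at 2.85 ± 0.388 TPM. The Cdk1 partner cyclins were low, with Ccna2 at 1.83 ± 0.340 TPM, Ccnb1 at 1.56 ± 0.337 TPM and Ccnb2 at 0.813 ± 0.202 TPM. Mki67, the gene of the proliferation antigen Ki-67, was at 0.229 ± 0.0528 TPM, and Kif11, a spindle motor, was at 0.196 ± 0.0319 TPM. The levels of Mcm proteins' genes, which work as a ring with 1 copy of each, ran from 26.0 TPM for Mcm7 to 0.255 ± 0.0996 TPM for Mcm5. Of the CDK inhibitor genes, Cdkn2a at 573 ± 27.6 TPM, Cdkn1a at 437 ± 29.0 TPM and Cdkn2b at 141 ± 8.92 TPM lay above all 39 genes. Cdkn1b, at 34.5 ± 2.97 TPM, was below Pcna and near Ccnd1 and Cdk1.

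**Figure D1:**
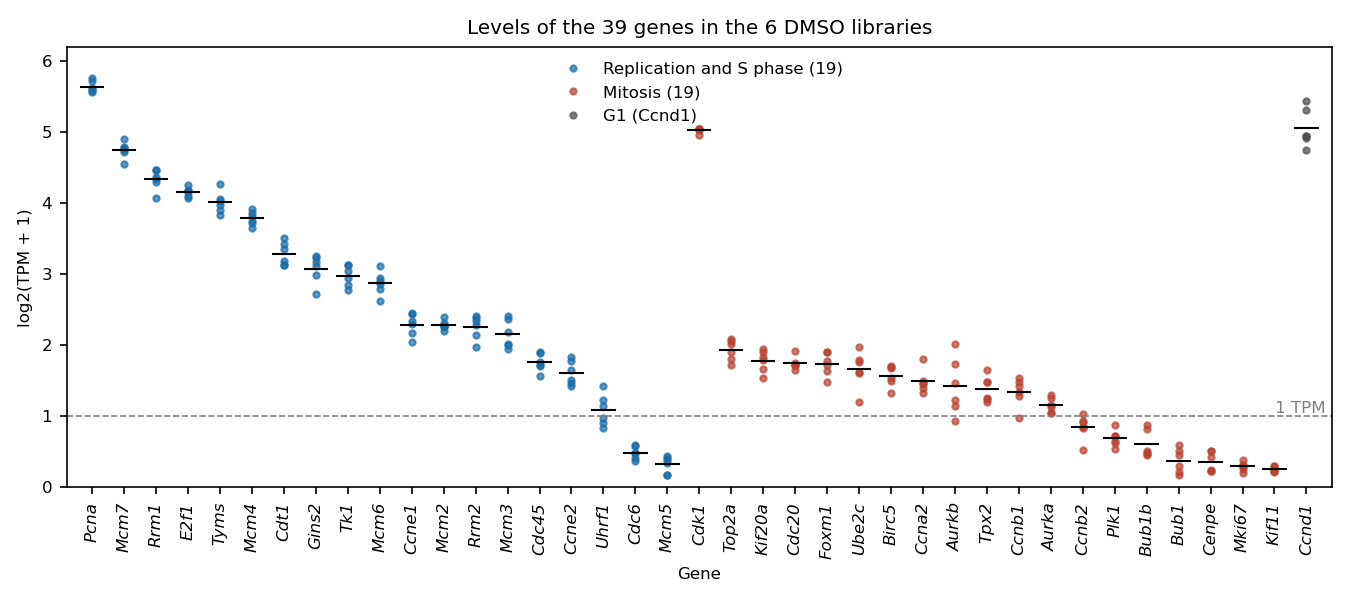
Levels of the 39 genes in the 6 DMSO libraries, as log2(TPM + 1), with each gene on the horizontal axis, a point for each library and a line for the mean of the points. Pcna, Cdk1 and Ccnd1 lie highest, and the 8 untested genes lie below the dashed line at 1 TPM in all 6 libraries (the mean of Ccnb2, which was tested, also lies below it).

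The cells and the reads were checked first. All 10 fibroblast markers were detected in every group. Their summed levels were 11949 to 13543 TPM in DMSO and 4800 to 5967 TPM in Cardamonin. All 10 fell with Cardamonin, where 33.0% of all tested genes fell. Of the 10, 8 fell with Antimycin A, 7 with Podofilox, 6 with AEG 3482 and 5 with each of the remaining compounds. With AEG 3482 2 of them rose, and 1 rose with each other compound except Cardamonin. Of 20 markers of other cell types, 15 or 16 had a mean under 1 TPM in each group, and Krt5, Myod1 and Plin1 were at 0 in every library. The immune markers Lyz2 and Adgre1 were present in DMSO (157 and 10.4 TPM) and fell with all 8 compounds, to between 41.4 and 102 TPM and between 1.91 and 6.51 TPM, while Ptprc stayed under 1 TPM in every group mean. Cd68, another immune marker, was at 13.1 TPM in DMSO and rose with Cardamonin (33.1 TPM) and BerberineA (17.1 TPM), and did not pass the threshold with the other 6. The melanocyte marker Mlana was at 4.41 TPM in DMSO. It fell with Cardamonin (0.426 TPM) and AEG 3482 (0.356 TPM), rose to between 10.3 and 15.5 TPM with Antimycin A, Dihydrorotenone, Diphenyleneiodonium Cl, BerberineA and Clofilium tosylate, and was at 5.54 TPM with Podofilox, while Tyrp1 and Dct were near 0. Cdk1, described below, was likewise lower than DMSO with Cardamonin and AEG 3482 and higher in the mean with those 5 compounds. Its rise did not pass the threshold with Dihydrorotenone and Diphenyleneiodonium Cl. With Podofilox Cdk1 fell (-0.56, adjusted p = 0.000101), while Mlana was at 5.54 TPM against 4.41 TPM in DMSO. The summed level of the 20 markers was 158 to 214 TPM in DMSO and 71.4 to 135 TPM with the compounds. The part of these markers in the results below was not tested. In bulk RNA, fewer cells in a phase of the cycle and less RNA per cell cannot be told apart. Reads of 9 of the 39 genes could be shared with another gene, since over 20% of their 31-base words also occur elsewhere in the annotated transcripts, and the labels do not say whether reads were counted by strand. The highest share was 66.2% for Gins2, which overlaps Gse1 on the opposite strand, followed by Mcm7 (33.4%), Ccnb1 (27.8%), Cdc20 and Kif20a (26.7% each), Ube2c (25.3%), Uhrf1 (24.3%), Pcna (23.3%) and Ccnd1 (22.3%).

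Changes from DMSO were tested with limma on log2(TPM + 1), fitted over all 13644 genes and all 30 libraries with Benjamini-Hochberg adjustment within each comparison. A gene is said to rise or fall where its adjusted p was below 0.05, and changes and their standard errors (SE) are on that log2 scale, which understates the change of low genes. AEG 3482 changed 21 of the 31 tested genes, where 68.1% of all tested genes changed. Of the 21, 12 were higher and 9 lower, where 41.3% of all tested genes were higher and 26.8% lower. Cardamonin changed 19, where 70.3% of all tested genes changed, 7 of them higher and 12 lower (37.3% and 33.0% of all tested genes). Podofilox changed 15 (background 46.2%), 5 higher and 10 lower (background 26.2% and 20%). Antimycin A changed 13 (background 37.3%), 10 higher and 3 lower (background 21.8% and 15.5%). Clofilium tosylate changed 11 (background 23.4%), 7 higher and 4 lower (background 10.9% and 12.5%). BerberineA changed 10 (background 21.7%), 7 higher and 3 lower (background 12.6% and 9.16%). Diphenyleneiodonium Cl changed 8 (background 25.7%), 5 higher and 3 lower (background 14% and 11.7%), and Dihydrorotenone changed 4 (background 14.4%), 1 higher and 3 lower (background 4.95% and 9.43%). Background here is the share of all 13644 tested genes called in the same comparison and direction. The share of the tested members called was below that of all tested genes for Cardamonin (61.3%), AEG 3482 (67.7%) and Dihydrorotenone (12.9%), and at or above it for the other compounds. All 8 comparisons use the same 6 DMSO libraries.

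The scaling of the libraries moved some of these splits. With quantile normalization Cardamonin gave 12 higher and 8 lower, and with median-ratio scaling AEG 3482 gave 10 higher and 12 lower. Dihydrorotenone gave 2 higher and 3 lower with either. None of the single calls changed direction in any setting run. Of the 101 calls against DMSO, 63 were made in every setting that tested the gene, and the genes described as rising or falling by role below are among those unless said otherwise.

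**Figure D2:**
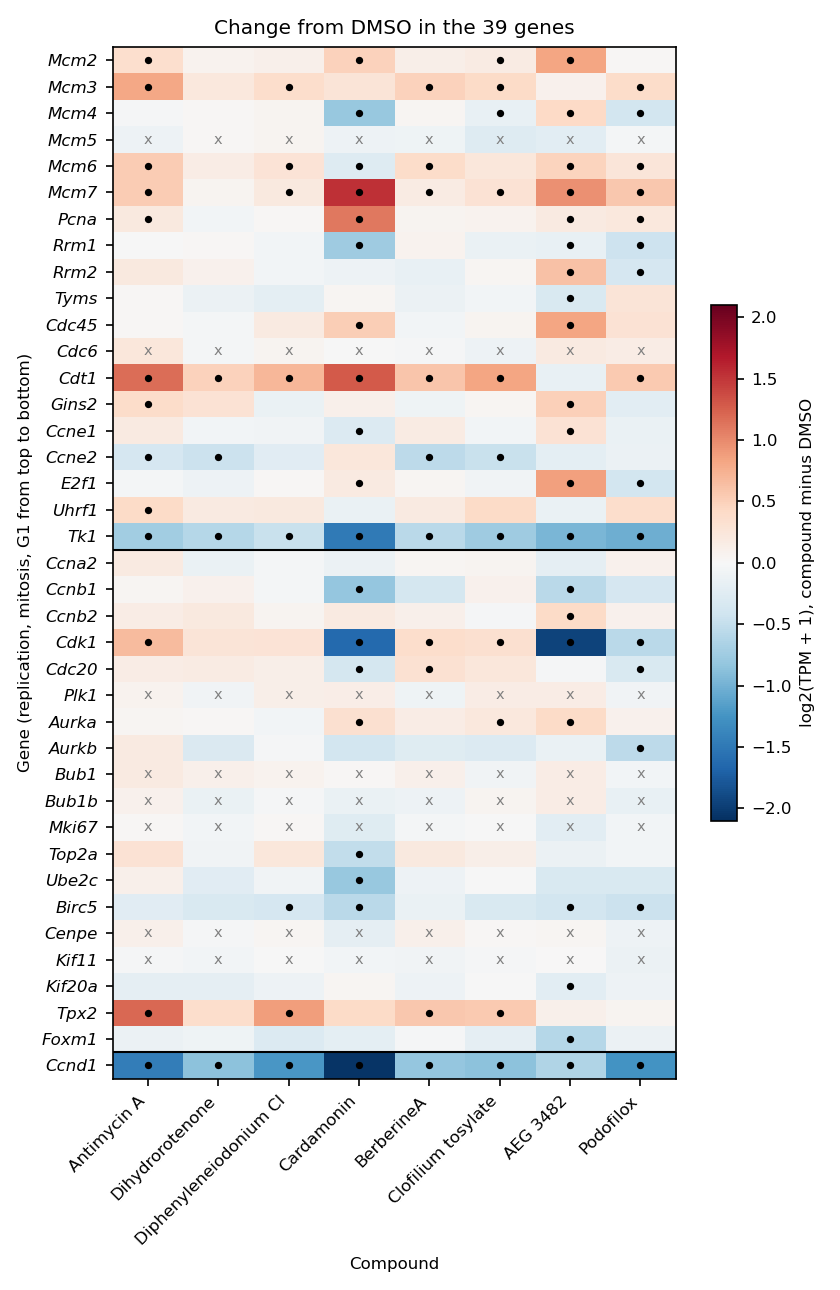
Change from DMSO of each of the 39 genes (vertical axis) with each compound (horizontal axis), as a difference in log2(TPM + 1) shown by colour. Black dots mark genes past the threshold of 0.05 and grey crosses mark genes that were not tested. Rows of red across most columns are seen for Cdt1 and Mcm7 and rows of blue across all columns for Tk1 and Ccnd1, while Cdk1 turns from red to deep blue between compounds.

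Ccnd1, which encodes cyclin D1, the growth-factor-responsive cyclin of G1, fell with every compound (chromosome 7, 144929931 to 144939925, GRCm38). In DMSO it ranged from 25.9 to 42.5 TPM with a median of 29.9. It was at 6.48, 6.80 and 7.64 TPM with Cardamonin, 10.8, 10.9 and 11.8 TPM with Antimycin A, 12.0, 13.2 and 13.5 TPM with Podofilox, and 14.4, 13.1 and 12.3 TPM with Diphenyleneiodonium Cl. With the other 4 compounds the 12 libraries ran from 14.9 to 22.1 TPM, so every treated library lay below every DMSO library. The falls ran from 0.63 (SE 0.11, adjusted p = 1.1e-05) with AEG 3482 to 2.06 (SE 0.11, adjusted p = 3.84e-15) with Cardamonin. LTO1, which overlaps Ccnd1 on the opposite strand, was at 24.3 ± 2.68 TPM in DMSO and did not fall past the threshold with any compound. It rose with AEG 3482, to 34.6 ± 1.81 TPM.

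Tk1, the thymidine kinase that salvages thymidine for DNA synthesis (chromosome 11, 117815526 to 117826092), fell with every compound too. The DMSO libraries ran from 5.87 to 7.75 TPM with a median of 7.02. Cardamonin libraries held 1.35, 2.40 and 1.79 TPM, Podofilox 2.75, 2.93 and 2.99 TPM, and AEG 3482 2.57, 3.40 and 3.24 TPM. All 24 treated libraries were below the DMSO range, the highest of them at 4.99 TPM. The falls ran from 0.47 (SE 0.11, adjusted p = 0.00269) with Diphenyleneiodonium Cl to 1.49 (SE 0.11, adjusted p = 7.55e-12) with Cardamonin.

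Among the licensing factors, Cdt1, which brings the MCM ring to origins (chromosome 8, 122568015 to 122573554), rose with 7 of the 8 compounds. DMSO libraries ran from 7.74 to 10.4 TPM with a median of 8.71. Cardamonin libraries held 21.3, 21.7 and 25.7 TPM and Antimycin A libraries 23.3, 18.5 and 21.4 TPM, the 2 highest group means. Clofilium tosylate libraries held 14.2, 18.4 and 16.7 TPM, Diphenyleneiodonium Cl 16.1, 13.3 and 15.5 TPM, BerberineA 13.1, 13.4 and 14.6 TPM, Podofilox 13.6, 12.9 and 13.4 TPM, and Dihydrorotenone 10.7, 13.9 and 13.6 TPM. None of these 21 libraries overlapped the DMSO range, and the rises ran from 0.48 (SE 0.10, adjusted p = 0.00155) with Dihydrorotenone to 1.28 (SE 0.10, adjusted p = 1.05e-11) with Cardamonin. AEG 3482 was the exception, with 8.15, 7.08 and 8.30 TPM and a difference of -0.15 (SE 0.10, adjusted p = 0.177). Cdc6, the other loading factor named here, stayed under 1 TPM in every library, with group means from 0.306 to 0.663 TPM.

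The genes of the MCM ring did not move together. Mcm7 (chromosome 5, 138164583 to 138172422) ranged from 22.5 to 29.1 TPM in DMSO with a median of 26.2. It reached 74.5, 74.0 and 83.8 TPM with Cardamonin, 54.9, 50.05 and 49.9 TPM with AEG 3482, 40.2, 40.05 and 36.7 TPM with Podofilox and 38.7, 35.7 and 39.5 TPM with Antimycin A, with no overlap with DMSO in any of them. The rises were 1.54 (SE 0.06, adjusted p = 3.29e-17) with Cardamonin, 0.96 (adjusted p = 8.07e-13) with AEG 3482, 0.57 (adjusted p = 4.66e-08) with Podofilox, 0.53 (adjusted p = 2.51e-07) with Antimycin A and 0.30 (adjusted p = 0.00102) with Clofilium tosylate. Ap4m1, the neighbour that overlaps Mcm7 on the opposite strand, was at 20.5 ± 1.24 TPM in DMSO and 21.7 ± 0.737 TPM with Cardamonin. Ap4m1 rose with Antimycin A (0.25, adjusted p = 0.00699), Podofilox (0.22, adjusted p = 0.0137) and AEG 3482 (0.19, adjusted p = 0.0228). It did not pass the threshold with the other compounds, Cardamonin included. The part of Ap4m1 in the Mcm7 value was not tested. Most of the shared words of Mcm7 (24.4% of its 31-base words) are shared with the processed pseudogene Gm5487, which was not analysed here, so its part in the Mcm7 value was not tested. Mcm4 went the other way with Cardamonin. It ran from 11.5 to 14.1 TPM in DMSO (median 12.8), held 7.17, 6.84 and 6.85 TPM with Cardamonin and 9.42, 9.40 and 9.91 TPM with Podofilox, and rose to 18.1, 17.3 and 17.1 TPM with AEG 3482. Its changes were -0.80 (SE 0.05, adjusted p = 9.47e-13), -0.38 (adjusted p = 1.79e-06) and 0.42 (adjusted p = 1.44e-07), and no library of these 3 groups overlapped DMSO.

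Mcm2 ran from 3.60 to 4.26 TPM in DMSO (median 3.84) and reached 7.48, 8.02 and 7.38 TPM with AEG 3482. It rose by 0.82 (SE 0.06, adjusted p = 2.18e-11) with AEG 3482, 0.48 (adjusted p = 2.68e-07) with Cardamonin and 0.35 (adjusted p = 8.82e-05) with Antimycin A. Mcm6 rose with Antimycin A (0.53, SE 0.09, adjusted p = 2.68e-05), with AEG 3482 (0.47, adjusted p = 3.87e-05) and with BerberineA (0.39, adjusted p = 0.00172). Its DMSO range was 5.20 to 7.70 TPM, and the Antimycin A libraries held 9.48, 9.17 and 10.3 TPM. Mcm3 rose by 0.82 (SE 0.13, adjusted p = 9.53e-06) with Antimycin A, from 2.85 to 4.30 TPM in DMSO to 7.27, 5.81 and 7.61 TPM. With AEG 3482 the 3 Mcm3 libraries were spread from 2.71 to 4.97 TPM, which covers the DMSO range. Thus with Antimycin A, Mcm2, Mcm3, Mcm6 and Mcm7 rose, while Mcm4 differed by -0.03 (SE 0.05, adjusted p = 0.705). Mcm5 was under 1 TPM in every library.

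Cdc45 and Gins2 complete the helicase. Cdc45 ran from 1.97 to 2.74 TPM in DMSO, and rose to 4.32, 5.85 and 4.95 TPM with AEG 3482 (0.83, SE 0.13, adjusted p = 2.71e-06) and to 3.88, 4.11 and 3.57 TPM with Cardamonin (0.52, adjusted p = 0.000785). Gins2 rose with AEG 3482 (0.49, SE 0.11, adjusted p = 0.000309) and Antimycin A (0.39, adjusted p = 0.00601), from 7.53 ± 1.09 TPM to 11.0 ± 1.08 and 10.1 ± 0.645 TPM. Gse1, whose sequence covers most of Gins2 on the opposite strand, went from 5.49 ± 1.58 TPM in DMSO to 11.1 ± 0.649 TPM with AEG 3482 and 4.36 ± 0.673 TPM with Antimycin A. Its part in the Gins2 value was not tested.

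Pcna (chromosome 2, 132249162 to 132253314) ranged from 46.3 to 53.2 TPM in DMSO with a median of 48.0, and held 111, 98.3 and 112 TPM with Cardamonin. That rise was 1.11 (SE 0.06, adjusted p = 1.68e-14), and no other group exceeded 61.2 TPM in any library. Pcna-ps2, a processed copy that shares 23.3% of the 31-base words of Pcna, also rose with Cardamonin, from 8.43 ± 1.27 to 16.2 ± 1.60 TPM. The pseudogene could hold reads of Pcna, or the reverse, and this was not tested. Uhrf1, which carries DNA methylation through replication, was at 1.15 ± 0.338 TPM in DMSO and at 0.951 to 1.86 TPM in the group means.

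The genes of nucleotide supply moved in different directions. Rrm1 fell with Cardamonin to 11.1, 11.7 and 10.4 TPM (-0.75, SE 0.06, adjusted p = 1.25e-10) and with Podofilox to 13.8, 14.02 and 14.04 TPM (-0.43, adjusted p = 4.49e-06), from a DMSO range of 15.9 to 21.1 TPM. Rrm2, the small subunit of the same enzyme, did not follow it with Cardamonin, where it held 3.84, 3.21 and 3.31 TPM against 2.95 to 4.31 TPM in DMSO (-0.11, SE 0.11, adjusted p = 0.383). Rrm2 rose with AEG 3482, to 5.85, 6.61 and 6.50 TPM (0.61, adjusted p = 2e-05). Tyms, thymidylate synthase, was at 15.2 ± 1.77 TPM in DMSO and at 12.0 to 18.6 TPM in the group means of the compounds.

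Of the genes at the G1 to S switch, E2f1 separated 2 compounds. DMSO libraries ran from 15.9 to 18.1 TPM with a median of 17.0. AEG 3482 libraries held 31.7, 33.5 and 29.8 TPM, a rise of 0.87 (SE 0.05, adjusted p = 4.36e-14), and Podofilox libraries 13.4, 11.8 and 12.9 TPM, a fall of 0.39 (SE 0.05, adjusted p = 3.72e-07). Cardamonin libraries, at 19.4, 18.9 and 19.9 TPM, were just above DMSO (0.19, adjusted p = 0.00119). Ccne1, encoding cyclin E1, was at 3.92 ± 0.528 TPM in DMSO and 5.08 ± 0.172 TPM with AEG 3482 (0.31, SE 0.10, adjusted p = 0.0101), a call that median-ratio scaling ended. Ccne2, encoding cyclin E2, fell with BerberineA from 1.69 to 2.57 TPM to 1.06, 1.07 and 1.13 TPM (-0.55, SE 0.14, adjusted p = 0.00432).

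Cdk1 gave the widest span of the mitosis genes (chromosome 10, 69335146 to 69352938). The DMSO libraries were tight, from 30.1 to 32.2 TPM with a median of 31.9. AEG 3482 libraries held 5.04, 9.53 and 8.45 TPM and Cardamonin libraries 9.20, 10.8 and 8.66 TPM, with falls of 1.95 (SE 0.11, adjusted p = 2.18e-14) and 1.64 (SE 0.11, adjusted p = 4.29e-13). Podofilox libraries, at 20.1, 22.1 and 21.2 TPM, fell less, by 0.56 (SE 0.11, adjusted p = 0.000101). With Antimycin A the gene rose to 51.3, 52.8 and 47.3 TPM, by 0.66 (SE 0.11, adjusted p = 2.08e-05). All treated libraries lay outside the DMSO range: above it with Antimycin A, Dihydrorotenone, Diphenyleneiodonium Cl, BerberineA and Clofilium tosylate, and below it with AEG 3482, Cardamonin and Podofilox. The differences with Dihydrorotenone (0.27, adjusted p = 0.0882) and Diphenyleneiodonium Cl (0.28, adjusted p = 0.0549) did not pass the threshold. Cdk1 shares 0.0202% of its 31-base words with other genes.

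**Figure D3:**
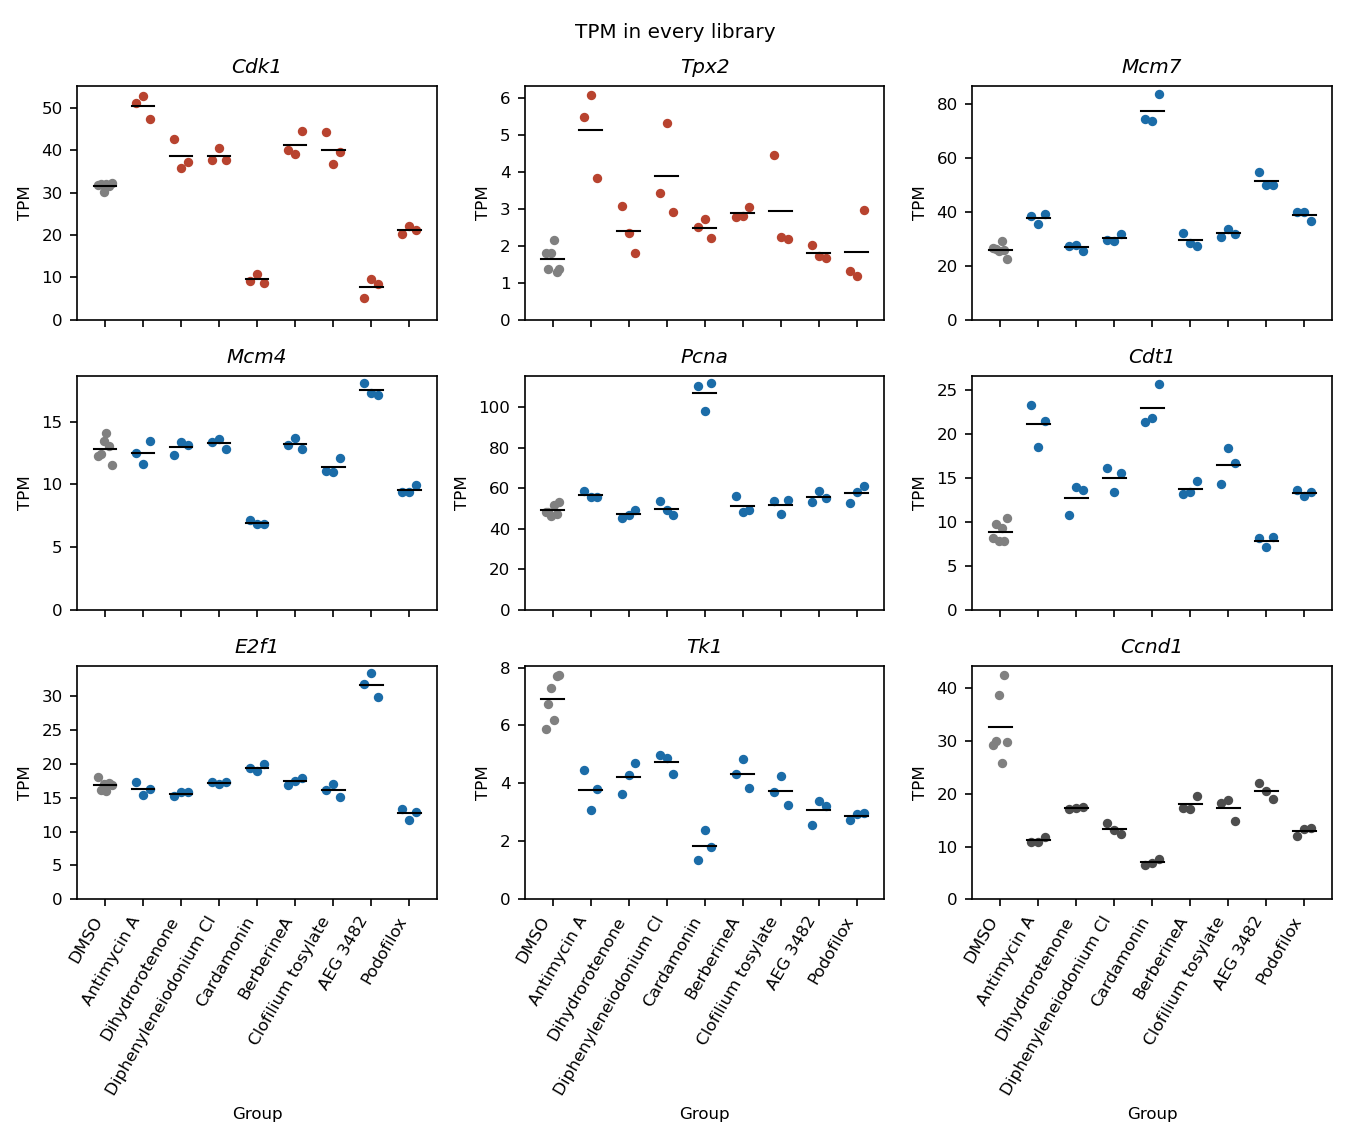
TPM in every library (points, vertical axes from 0) for 9 of the genes in DMSO (grey, 6 libraries) and with each compound (3 libraries), with lines at group means. Cdk1 falls from 31.6 TPM in DMSO to 7.68 TPM with AEG 3482 and 9.54 TPM with Cardamonin and rises to 50.5 TPM with Antimycin A, Cdt1 rises with all compounds but AEG 3482, and Tk1 and Ccnd1 fall with all 8.

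Cdk1's partners and regulators moved less. Ccnb1, encoding cyclin B1, fell with Cardamonin, from 0.962 to 1.92 TPM in DMSO to 0.229, 0.408 and 0.734 TPM (-0.81, SE 0.17, adjusted p = 0.000111), and with AEG 3482 to 0.638, 0.603 and 0.912 TPM (-0.57, adjusted p = 0.00406). The AEG 3482 call was lost with quantile normalization. Ccna2, encoding cyclin A2, was the tested gene that passed in no comparison with DMSO, with group means of 1.49 to 2.27 TPM. Foxm1, the transcription factor of mitosis genes, fell with AEG 3482 to 1.04, 1.51 and 1.07 TPM, below a DMSO range of 1.79 to 2.76 TPM (-0.60, SE 0.13, adjusted p = 0.000211). Ube2c, the ubiquitin carrier of the anaphase-promoting complex, fell with Cardamonin, from 1.30 to 2.92 TPM to 0.695, 1.20 and 0.628 TPM (-0.80, SE 0.16, adjusted p = 0.000111).

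The kinases and spindle genes showed rises as well as falls. Tpx2, which activates Aurora A and seeds spindle microtubules, rose with Antimycin A, from 1.30 to 2.16 TPM in DMSO to 5.47, 6.07 and 3.82 TPM (1.21, SE 0.19, adjusted p = 1.17e-05). It rose with Diphenyleneiodonium Cl to 3.41, 5.33 and 2.92 TPM (0.87, adjusted p = 0.000975). Aurka, encoding Aurora A, rose with AEG 3482 (0.40, SE 0.07, adjusted p = 3.24e-05) and Cardamonin (0.33, adjusted p = 0.000328), from 1.07 to 1.46 TPM to 2.22, 2.05 and 1.63 TPM and 1.72, 1.93 and 1.77 TPM. So Aurka was higher in the same 2 treatments in which Cdk1 and Ccnb1 were lower. Aurka also rose with Clofilium tosylate (0.21, adjusted p = 0.0368). There Cdk1 rose as well (0.33, adjusted p = 0.0246) and Ccnb1 did not pass the threshold. Both of these Clofilium tosylate calls were lost when single libraries were left out, as given below. Birc5, encoding survivin, fell with Podofilox to 1.11, 1.11 and 1.29 TPM (-0.46, SE 0.12, adjusted p = 0.00374) and with Cardamonin to 0.462, 1.39 and 1.28 TPM (-0.57, adjusted p = 0.000218), from a DMSO range of 1.51 to 2.26 TPM. Without Cardamonin replicate 1 the Cardamonin change of Birc5 was -0.35.

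The 8 untested genes were low throughout. Plk1, the polo kinase, had group means of 0.520 to 0.811 TPM, and Bub1 and Bub1b, kinases of the spindle checkpoint, 0.243 to 0.545 and 0.366 to 0.694 TPM. Cenpe, a kinetochore motor, had group means of 0.124 to 0.382 TPM. Mki67 held 0.154 to 0.309 TPM in DMSO, 0.0231, 0.0196 and 0.0309 TPM with Cardamonin and 0.0593, 0.0604 and 0.0417 TPM with AEG 3482. Those 6 libraries lay below every DMSO library, and the other 18 treated libraries ran from 0.135 to 0.348 TPM. Mki67 was not alone in this. Cenpe with Cardamonin (mean 0.124 TPM), Kif11 with Podofilox (0.103 TPM) and Mcm5 with Clofilium tosylate (0.0404 TPM) also lay below every DMSO library. Cdc6 with Antimycin A (0.663 TPM) lay above every DMSO library.

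By list, the replication genes outnumbered the mitosis genes among the calls, with 17 and 13 of them tested. In DMSO 10 of the 19 replication genes and 1 of the 19 mitosis genes had a mean of at least 5 TPM. The log2 scale used understates the change of low genes, and the part of level in this contrast was not tested. With Antimycin A 8 of 17 tested replication genes rose and 2 fell, with AEG 3482 10 rose and 3 fell, with Cardamonin 6 rose and 5 fell, and with Podofilox 5 rose and 5 fell. With Clofilium tosylate 4 rose and 3 fell, and with BerberineA 4 rose and 2 fell. With Diphenyleneiodonium Cl 4 rose and 1 fell, and with Dihydrorotenone 1 rose and 2 fell. The shares called with these compounds, in that order, were 41.2%, 35.3%, 29.4% and 17.65%. Each was above the share of all tested genes called, at 23.4%, 21.7%, 25.7% and 14.4%. The share of tested replication genes called was 76.5% with AEG 3482 and 58.8% with each of Antimycin A and Podofilox, above the 68.1%, 37.3% and 46.2% of all tested genes, and 64.7% with Cardamonin, below 70.3%. Of 13 tested mitosis genes, 1 rose and 6 fell with Cardamonin, 2 rose and 5 fell with AEG 3482, and 4 fell with Podofilox. The share of tested mitosis genes called was 53.8% with each of Cardamonin and AEG 3482 and 30.8% with Podofilox, below the 70.3%, 68.1% and 46.2% of all tested genes. In each of Clofilium tosylate and BerberineA 3 mitosis genes rose, in Antimycin A 2 rose, and in Diphenyleneiodonium Cl 1 rose and 1 fell. The share called was 23.1% with each of Clofilium tosylate and BerberineA, beside 23.4% and 21.7% of all tested genes. It was 15.4% with each of Antimycin A and Diphenyleneiodonium Cl, below the 37.3% and 25.7% of all tested genes. With Dihydrorotenone 0 mitosis genes passed limma's threshold, and 3 (Birc5, Cdk1 and Kif20a) had an unadjusted p below 0.05.

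Medians over all 19 genes of a list, untested genes included, also differed between compounds. The replication median was 0.20 with Antimycin A and 0.18 with AEG 3482, beside 0.03 and 0.10 over all tested genes, and lay between 0.02 and 0.05 with the other 6. The mitosis median was -0.19 with Cardamonin, -0.12 with AEG 3482 and -0.11 with Podofilox, beside 0.03, 0.10 and 0.04 over all tested genes, and 0.10 with Antimycin A. In summed TPM the mitosis genes came to 53.4 to 60.2 in DMSO, 26.9 to 32.3 with Cardamonin, 27.1 to 31.9 with AEG 3482, 40.7 to 44.5 with Podofilox and 78.5 to 83.0 with Antimycin A, sums in which Cdk1 is the largest term. Cdk1 alone had means of 31.6 TPM in DMSO, 9.54 TPM with Cardamonin and 7.68 TPM with AEG 3482. Its means were 21.1 TPM with Podofilox and 50.5 TPM with Antimycin A. The replication genes came to 187 to 198 TPM in DMSO and 289 to 311 TPM with Cardamonin, where Pcna and Mcm7 are the largest terms. Between these groups the mean of Pcna went from 49.0 to 107 TPM and that of Mcm7 from 26.0 to 77.4 TPM.

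**Figure D4:**
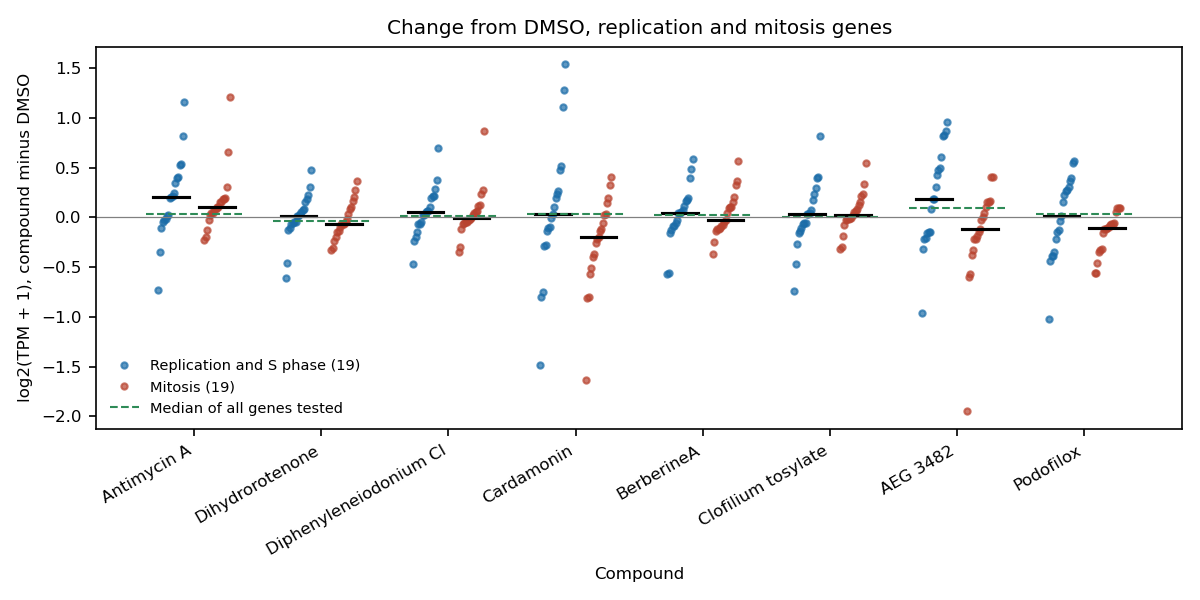
Difference from DMSO in log2(TPM + 1) (vertical axis) for each of the 19 replication genes (blue) and 19 mitosis genes (red) with each compound (horizontal axis), with black lines at list medians and dashed green lines at the median of all tested genes. Points are sorted by value within a list. The lowest red point with AEG 3482 and with Cardamonin is Cdk1, at -1.95 and -1.64, and the 3 highest blue points with Cardamonin are Mcm7, Cdt1 and Pcna.

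A further 36 calls rested on single libraries, in the sense that leaving out 1 library ended them. With Antimycin A these were Pcna (adjusted p = 0.0659 without Antimycin A replicate 1), Ccne2 (0.0721 to 0.240 without Antimycin A replicate 1 or 3 or DMSO replicate 2, 4 or 6) and Uhrf1 (0.0524 to 0.333 without Antimycin A replicate 3 or DMSO replicate 1, 2, 3 or 5). Uhrf1 moved from 0.40 to 0.23 without Antimycin A replicate 3. With Dihydrorotenone it was Ccne2 (0.0654 to 0.147 without Dihydrorotenone replicate 2 or 3). With Diphenyleneiodonium Cl they were Mcm6 (0.0948 without replicate 1), Mcm7 (0.0976 without replicate 3), Mcm3 (0.0532 to 0.0916 without any of its 3 replicates or DMSO replicate 1, 2 or 5) and Birc5 (0.0538 to 0.139 without any of its 3 replicates or DMSO replicate 2, 3, 5 or 6). In these runs Mcm6, Mcm7 and Mcm3 remained above DMSO in the mean and Ccne2 and Birc5 below it.

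With BerberineA the calls of Cdk1 (adjusted p = 0.0903) and Mcm3 (0.0597) were lost without BerberineA replicate 3, and that of Cdc20, the activator of the anaphase-promoting complex, without BerberineA replicate 1 or 3 (0.0804 to 0.0976). Tpx2 was lost without any of the 3 BerberineA libraries or DMSO replicate 2, 5 or 6 (0.0515 to 0.107), and Mcm7 without BerberineA replicate 1 or 2 or DMSO replicate 1, 2, 3, 5 or 6 (0.0536 to 0.296), with a change of 0.11 in place of 0.17 without BerberineA replicate 1. With Clofilium tosylate the call of Cdk1 was lost without Clofilium tosylate replicate 1 or 3 (0.0620 to 0.142), those of Mcm3 and Ccne2 without replicate 2 or 3 (0.0504 to 0.129), and that of Mcm4 without replicate 1 or 2 or DMSO replicate 3, 4 or 5 (0.0592 to 0.158). Tpx2 was lost without Clofilium tosylate replicate 1 or DMSO replicate 2, 5 or 6 (0.0556 to 0.328), and its change was 0.29 in place of 0.55 without Clofilium tosylate replicate 1. Mcm2 was lost without replicate 2 or 3 or DMSO replicate 2, 3, 4, 5 or 6 (0.0526 to 0.188), and Aurka without any of the 3 or DMSO replicate 1, 2 or 5 (0.0569 to 0.118). The Cdk1 libraries of both compounds were nevertheless all above DMSO, at 39.99, 39.04 and 44.6 TPM and at 44.2, 36.7 and 39.6 TPM.

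With Cardamonin the calls of Cdc20 (adjusted p = 0.0569) and Top2a (0.0870) were lost without Cardamonin replicate 3, where Top2a changed by -0.30 in place of -0.51. Those of Mcm6 (0.0561 to 0.0607, without replicate 1 or 2) and Ccne1 (0.0924 to 0.165, without replicate 2 or 3) were lost too, and Ccne1 moved from -0.29 to -0.45 without replicate 1 and to -0.18 without replicate 3. With AEG 3482 the calls lost were Pcna (0.0830 without replicate 2), Birc5 (0.0683 without replicate 3), Ccnb2 (0.0502 to 0.0723 without replicate 2 or 3), and Tyms (0.0583 to 0.122 without replicate 2 or DMSO replicate 4). Rrm1 (0.0529 to 0.214, without replicate 2 or 3 or DMSO replicate 1, 3, 4 or 5) and Kif20a, a cytokinesis motor (0.0588 to 0.104, without any of the 3 or DMSO replicate 2, 3, 4 or 6), were lost likewise. With Podofilox they were Mcm3 (0.0707), Mcm6 (0.135) and Pcna (0.0509) without Podofilox replicate 3, Rrm2 (0.0534) without replicate 2 and Cdc20 (0.115) without replicate 1. Aurkb, encoding Aurora B, was lost without Podofilox replicate 1 or 3 or DMSO replicate 3 or 4 (0.0555 to 0.109).

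The other genes of the same machinery were read from lists of 41 further replication genes and 53 further mitosis genes. Of 40 tested replication genes, 15 rose and 6 fell with AEG 3482 and 10 rose and 10 fell with Cardamonin, while 8 rose and 2 fell with Antimycin A. The share called was 52.5% with AEG 3482, 50% with Cardamonin and 25% with Antimycin A, each below the 68.1%, 70.3% and 37.3% of all tested genes. Dbf4, the activating subunit of the origin-firing kinase Cdc7, was at 4.40 ± 0.622 TPM in DMSO. It rose to 13.9 ± 1.17 TPM with Cardamonin (1.47, SE 0.10, adjusted p = 4.77e-13), to 8.10 ± 0.825 TPM with Podofilox (0.76) and to 7.41 ± 0.790 TPM with Antimycin A (0.64). The primase genes fell with Cardamonin, Prim1 by 1.09 (SE 0.12, adjusted p = 9.43e-09) and Prim2 by 0.59 (SE 0.07, adjusted p = 2.64e-08). Chaf1b, a subunit of the chromatin assembly factor of replicating DNA, rose with Antimycin A (0.90, adjusted p = 1.14e-07), BerberineA (0.62), Clofilium tosylate (0.60) and Diphenyleneiodonium Cl (0.54). With AEG 3482 the largest named rises were Pold1, the catalytic subunit of DNA polymerase delta (0.79, adjusted p = 2.01e-05), and Slbp, the histone mRNA binding protein gene (0.75, adjusted p = 6.26e-11).

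Of the 31 tested further mitosis genes, 6 rose and 8 fell with Cardamonin, 2 rose and 6 fell with Podofilox, and 11 changed with AEG 3482, each of them higher. The share called was 45.2% with Cardamonin, 25.8% with Podofilox and 35.5% with AEG 3482, each below the 70.3%, 46.2% and 68.1% of all tested genes. The 35.5% higher with AEG 3482 was also below the 41.3% of all tested genes that were higher. None of the list was lower, where 26.8% of all tested genes were lower. This list was not rerun under other scalings. The AEG 3482 rises stood beside the falls of Cdk1, Ccnb1 and Foxm1 in the same libraries. They were led by Spc25, a subunit of the kinetochore NDC80 complex, from 4.79 ± 0.780 to 11.8 ± 0.995 TPM (1.15, SE 0.14, adjusted p = 6.11e-08). Tacc3, a spindle protein and Aurora A substrate, rose from 3.62 ± 0.521 to 8.51 ± 0.999 TPM (1.04, SE 0.11, adjusted p = 1.14e-08). Spc25 fell with Podofilox, to 2.62 ± 0.216 TPM (-0.67, adjusted p = 0.000274). With Cardamonin, Cks2, a small Cdk1-binding protein gene, rose from 18.5 ± 1.89 to 43.3 ± 4.20 TPM (1.19, adjusted p = 2.42e-11), and Racgap1, a cytokinesis regulator, fell by 0.95 (SE 0.14, adjusted p = 1.52e-06). Pttg1, which encodes securin, rose with Antimycin A, from 15.1 ± 1.34 to 24.1 ± 1.40 TPM (0.65, adjusted p = 7.52e-06).

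The CDK inhibitors were read beside the members. Cdkn1a ranged from 397 to 465 TPM in DMSO and rose with 7 compounds, to 1179 ± 41.4 TPM with AEG 3482 (1.43, SE 0.05, adjusted p = 1.84e-17), 782 ± 21.8 TPM with Cardamonin (0.84, adjusted p = 4.71e-13) and between 497 and 583 TPM in the means of the other 5. With Podofilox it was at 420 ± 7.13 TPM (-0.05, adjusted p = 0.451). Cdkn2b, encoding p15, rose with AEG 3482 (0.56) and Cardamonin (0.47) and fell with Podofilox from 141 to 96.6 ± 1.72 TPM (-0.54, adjusted p = 2.47e-09). Cdkn2a fell with Podofilox by 0.41 (adjusted p = 1.87e-08), to 431 ± 24.1 TPM. Cdkn1b, encoding p27, fell with Cardamonin (-0.56) and AEG 3482 (-0.22) and rose with BerberineA (0.24). Cdkn1c, encoding p57, fell with Cardamonin (-1.33, adjusted p = 3.09e-14) and AEG 3482 (-1.39, adjusted p = 2.21e-14), from 14.8 ± 1.38 TPM to 5.29 ± 0.604 and 5.01 ± 0.352 TPM, and rose with the other 6 compounds. Ccnd2, encoding cyclin D2, fell with AEG 3482 by 1.24 (SE 0.07, adjusted p = 1.74e-14) and Ccnd3 with Cardamonin by 1.09 (SE 0.11, adjusted p = 2.16e-09).

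Compounds were also compared with each other directly, in 4 contrasts. The first compared inhibitors of 2 sites of the mitochondrial electron transport chain. Antimycin A and Dihydrorotenone differed in 9 of 31 genes, where 15.5% of all tested genes differed. With Antimycin A 8 were higher and 1 lower (background 11.6% and 3.91%). Mcm7 (0.48, SE 0.07), Cdt1 (0.69, SE 0.11, adjusted p = 0.000106) and Mcm3 (0.60, SE 0.14) were higher with Antimycin A, and Ccnd1 was lower by 0.59 (SE 0.12). The 95% interval of the Tk1 difference ran from -0.39 to 0.14, and that of Mcm4 from -0.18 to 0.08. Cdk1 differed by 0.38 (SE 0.12, adjusted p = 0.0342), but not past the threshold without Antimycin A replicate 1 or 2 or Dihydrorotenone replicate 2 or 3 (0.0980 to 0.124).

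Cardamonin and AEG 3482, in which Cdk1 was lowest, differed in 19 of 31 genes, where 55.3% of all tested genes differed. With Cardamonin 7 were higher and 12 lower (background 22.6% and 32.7%). With quantile normalization that split was 8 higher and 9 lower. Cdt1 was higher with Cardamonin by 1.43 (SE 0.11), Pcna by 0.93 (SE 0.07) and Mcm7 by 0.58 (SE 0.07). Lower with Cardamonin were Ccnd1, with a difference of -1.43 (SE 0.12), Mcm4 (-1.22, SE 0.06), Mcm6 (-0.75, SE 0.10), Rrm2 (-0.72, SE 0.12) and E2f1 (-0.68, SE 0.06). Cdk1 differed by 0.31 (SE 0.12, adjusted p = 0.0324), which became 0.23 without Cardamonin replicate 2 and 0.07 without AEG 3482 replicate 1, neither past the threshold, and 0.47 without AEG 3482 replicate 2. The Cdk1 difference also missed the threshold with no filter on low genes, with a replicate block and in a fit of these 2 groups alone. For Aurka, which rose with both, the interval of the difference ran from -0.25 to 0.10, and for Ccnb1 from -0.64 to 0.15.

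Podofilox differed from Cardamonin in 17 of 31 genes (background 57.8%), 10 higher and 7 lower (background 29.1% and 28.7%). It differed from AEG 3482 in 17 (background 60.3%), 5 higher and 12 lower (background 25.1% and 35.2%). With quantile normalization the split against Cardamonin was 5 higher and 12 lower. Cdk1 was higher with Podofilox than with either, by 1.07 (SE 0.12) against Cardamonin and 1.39 (SE 0.12) against AEG 3482. Lower with Podofilox were E2f1, with differences of -0.58 (SE 0.06) and -1.26 (SE 0.06) in that order, and Mcm7 (-0.97 and -0.40, SE 0.07 each). Cdt1 with Podofilox lay between the others, -0.74 (SE 0.11) from Cardamonin and 0.70 (SE 0.11) from AEG 3482. The Tk1 difference between Podofilox and AEG 3482 had an interval from -0.33 to 0.21.

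The shown promoters can be set beside these values. Cdk1, whose shown run holds an E2F core, a homology region and CCAAT boxes, fell with AEG 3482 and Cardamonin. Mcm7, with an E2F core and a CCAAT box in the shown run, rose with both. A second Mcm7 window, not printed, holds a homology region beside E2F cores and CCAAT boxes. The homology region letters were thus found in windows of both genes. Mcm6, with overlapping E2F cores in 2 places, rose with AEG 3482. It fell with Cardamonin, to 4.68, 4.63 and 6.05 TPM (-0.27, adjusted p = 0.00769). That call was lost without Cardamonin replicate 1 or 2 and with quantile normalization. Mcm2, whose run holds the homology region letters and no searched E2F core, rose with both. Ccnb1, whose run holds an E2F core and a CCAAT box and whose window holds no homology region letters, fell with both. Its changes were -0.81 with Cardamonin and -0.57 with AEG 3482. Whether these letters bear on the changes was not tested.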

How the data were processed

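RNA-seq of 30 libraries was analysed, 3 for each of 8 compounds and 6 for DMSO, grouped by the samples' titles. Per the submitters' processing notes and the series text, the authors quantified transcripts with kallisto 0.43.1 on mm10 and summarised them by tximport. The deposited table holds TPM made by the authors for 29861 genes. A TPM is a share of its own library's transcripts, the sequencing depth is unknown, and precision rests on the spread between replicates.

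The 39 genes, the other gene lists and the comparisons were chosen with earlier results of these data known. A gene was tested if 3 or more libraries held 1 TPM or more. Tests were made on log2(TPM + 1) with limma 3.58.1 in R 4.3.3, using 1 mean per group over all 30 libraries, empirical Bayes with an intensity trend, and Benjamini-Hochberg adjustment over the 13644 tested genes of each comparison. The fit was tested on simulated data. All 39 genes may be named. From the other lists, the 2 largest rises and falls per compound were eligible, among genes past the threshold with at least 2 TPM in the higher group and no overlap with DMSO, besides Cdkn1a, Cdkn1b, Cdkn2a and Cdkn2b. Gene positions and shared 31-base words are from GENCODE M21 (GRCm38), and promoter sequences from RefSeq. Pseudocounts, filters, scalings, a replicate block and leaving out single libraries were tried as alternatives.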

Additional observations from a re-analysis of the deposited data

Results flagged for a closer look

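Each of the 39 genes was checked in the 6 DMSO libraries for a library far from the others by Dixon's ratio at its 95% critical value, which chance passes in about 1 in 20 groups. Cdk1 was lowest in DMSO replicate 3 at 30.05 TPM, where the other 5 held 31.66 to 32.18 TPM. Cdc20 was highest in the same library at 2.798 TPM, against 2.148 to 2.367 TPM. Ccna2 was highest in DMSO replicate 4 at 2.490 TPM, against 1.520 to 1.831 TPM.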

How the results depend on the processing

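No call among the 39 genes reversed in any setting run. Requiring a mean of at least 5 TPM left 11 of the genes to test, and the calls were 7 for Antimycin A, 2 for Dihydrorotenone, 5 for Diphenyleneiodonium Cl, 9 for Cardamonin, 5 for BerberineA, 6 for Clofilium tosylate, 10 for AEG 3482 and 9 for Podofilox against DMSO, 11 for Cardamonin against AEG 3482, 10 for Podofilox against Cardamonin and 9 for Podofilox against AEG 3482. Fitting only the 2 groups compared gave 6 for Clofilium tosylate. The cause of that change was not tested. Leaving out 1 library at a time gave 11 to 15 calls for Antimycin A, 3 to 5 for Dihydrorotenone, 5 to 8 for Diphenyleneiodonium Cl, 17 to 21 for Cardamonin, 6 to 10 for BerberineA, 6 to 11 for Clofilium tosylate, 17 to 21 for AEG 3482 and 11 to 17 for Podofilox. The ranges were 7 to 9 for Antimycin A against Dihydrorotenone, 15 to 17 for Cardamonin against AEG 3482, 13 to 16 for Podofilox against Cardamonin and 14 to 17 for Podofilox against AEG 3482. Counts moved by over 1.5 times without Diphenyleneiodonium Cl replicate 1 or 3 (5), BerberineA replicate 3 (6), Clofilium tosylate replicate 1, 2 or 3 (7, 6 and 7) and DMSO replicate 5 (7 for Clofilium tosylate).

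With the replicate number as a block, BerberineA gave 6 calls in place of 10, with 4 of the 10 lost. Clofilium tosylate gave 8 in place of 11, but 5 of the 11 (Mcm2, Mcm4, Ccne2, Cdk1 and Tpx2) were lost and 6 kept. The other counts moved by no more than 1.5 times. Libraries of the same number in different groups had a median correlation of deviations of 0.0071 over 108 pairs (from -0.107 to 0.151, 4 of them over 0.1), and 12 of 27 libraries correlated best with their own number, so the numbers were not taken to pair the libraries. The low level of most mitosis genes, under 3 TPM in DMSO, limits what 3 libraries can show, and the calls of the other lists were not rerun under these settings.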
